A study of Mus musculus with 15 samples.

Results

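The genes described here encode the proteins of the mitochondrial ribosome, taken by symbol as every gene named Mrpl or Mrps with a number, from the probe sets paired with exactly 1 gene symbol. There were 71 such genes among the 22180 genes tested. Of these, 45 belong to the large subunit and 25 to the small subunit, and Mrps36, despite its name, is a component of the alpha-ketoglutarate dehydrogenase complex. Total RNA was measured on 15 Affymetrix arrays, 5 each from choroid plexus carcinoma, choroid plexus papilloma and normal choroid plexus. The choroid plexus is the epithelium of the brain ventricles that secretes cerebrospinal fluid. Carcinoma mice were Atoh1-Cre; Myc/Myc; p53fl/fl, papilloma mice were Atoh1-Cre; Myc/Myc, and the mice that gave normal tissue were Myc/Myc; p53fl/fl without Cre. All mice were of a mixed C57Bl/6 and 129 background, and the samples of a group came from different animals. Cre acts only in cells in which the Atoh1-driven transgene is or was active. The p53fl/fl allele was shared by carcinoma and normal mice and is not in the papilloma genotype, so papilloma minus normal sets apart both Cre and the p53 allele. Ages are not given in the sources used here. Tumour tissue was taken once a mouse showed signs of disease such as ataxia or hydrocephalus. Values are log2 RMA values, so a difference of 1 is a 2-fold difference.

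Mitochondrial ribosomes translate the few messages of the mitochondrial genome, which encode core subunits of the respiratory chain and the ATP synthase. Their RNA is made in the mitochondrion, whereas all of their proteins are encoded in the nucleus, made in the cytosol and imported. Many have a bacterial homologue, and others joined the particle during the evolution of mitochondria. Genes for ribosome and mitochondrial biogenesis are among the known targets of Myc, and the choroid plexus epithelium is rich in mitochondria.

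The members were transcripts of high signal. The mean over the 15 arrays had a median of 9.89 across members, against 7.59 across all genes, and 68 of the 71 members stood above that gene median. Mrpl34, a short protein of the large subunit with a bacterial homologue, was the brightest at 11.9, and Mrps36 the dimmest at 6.47.

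Some arrays stood apart. Normal arrays 2, 3, 4 and 5 carried Xist at 10.69 to 12.48 together with signal from Y-linked genes. Each tumour array and normal array 1 carried one or the other, so those 4 normal arrays carried sex-linked transcripts of both kinds. The sample titles do not say whether these arrays held RNA from more than 1 mouse. Its effect on the spread of the normal arrays was not tested. The neuron marker list averaged 7.04 to 7.63 in carcinoma, 7.05 to 9.30 in papilloma, where arrays 2 and 4 were highest, and 8.10 to 8.63 in normal tissue. The 9 measured markers of choroid plexus epithelium averaged 12.49 to 12.83 in carcinoma, 12.59 to 12.88 in papilloma and 13.20 to 13.27 in normal tissue, so the labelled epithelium was present in every array. Markers of meninges and fibroblasts averaged 8.24 to 8.66 in carcinoma, 7.88 to 8.55 in papilloma and 10.04 to 10.21 in normal tissue. The 7 measured oligodendrocyte markers averaged 7.43 to 8.0 in carcinoma, 7.46 to 8.24 in papilloma and 8.46 to 8.85 in normal tissue. Pituitary markers (5 measured) averaged 5.95 to 6.13 in carcinoma, 5.88 to 6.69 in papilloma and 7.14 to 8.21 in normal tissue. Endothelial markers averaged 9.15 to 9.54 in carcinoma, 8.82 to 9.31 in papilloma and 8.43 to 8.90 in normal tissue. The epithelial, fibroblast, oligodendrocyte and pituitary ranges of normal tissue lay above those of both tumour types, and the part of these lists in the results was not tested. In bulk tissue, fewer cells of a type and less RNA per cell cannot be told apart.

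In carcinoma, most genes of the mitochondrial ribosome were higher than in normal choroid plexus. Of the 71 members, 38 rose, 5 fell and 28 did not pass the test (limma, Benjamini-Hochberg adjusted p under 0.05 over all genes), a called share of 60.6% against 37.9% of all genes. Rises alone were called in 18.7% of all genes and falls in 19.2%. The median member change was 0.27, against -0.02 over all genes, and single changes ran from -0.55 to 1.74, with 2 members at 2-fold or more. The rises called ran from 0.21 for Mrps24 upwards, and the 28 members that did not pass lay between -0.25 for Mrps28 and 0.37 for Mrpl22. The carcinoma and normal arrays did not overlap for 28 members, 25 higher in carcinoma and 3 lower. Of all genes, 29.9% did not overlap, 14.6% higher and 15.2% lower. The counts depended on the normal arrays: with arrays 2 to 5 left out, fewer members were called and the median change was 0.13. That fit leaves normal array 1 alone, with a spread assumed like that of the tumours. Normal array 1 held the highest normal value for 56 of 71 members, against 37.1% of all genes, which by itself makes rises smaller. The share of all genes called in that fit is not given here.

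In papilloma, too, far more ribosomal genes rose than fell against normal tissue. Here 39 members rose, 3 fell and 29 did not pass, a called share of 59.2% against 33.2% of all genes, with rises in 17.0% of all genes and falls in 16.3%. The median member change was 0.33, against 0.01 over all genes, with a range of -0.55 to 1.73 and 1 member at 2-fold or more. The 29 that did not pass lay between -0.24 and 0.30. The papilloma and normal arrays did not overlap for 34 members, 32 higher in papilloma and 2 lower. Of all genes, 32.1% did not overlap, 16.3% higher and 15.8% lower. With normal arrays 2 to 5 left out, fewer members were called and the median change was 0.14, again against normal array 1 alone. Both tumour types were set against the same 5 normal arrays, so the results of these comparisons are not independent of each other.

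**Figure D1:**
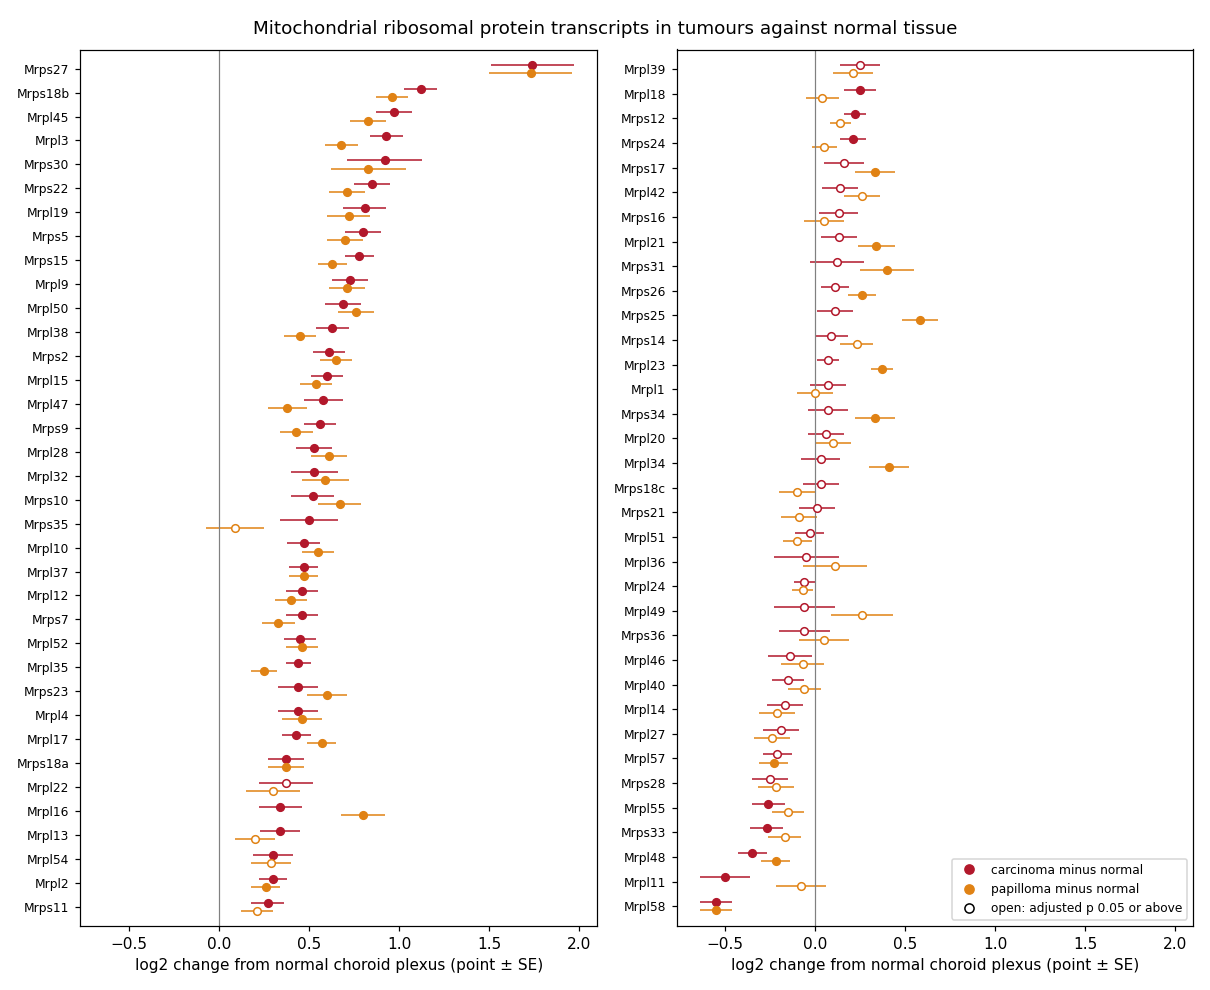
Change of each of the 71 members from normal choroid plexus on the log2 scale, with red points for carcinoma minus normal and orange points for papilloma minus normal (bars are the SE, open points did not pass adjusted p 0.05). Changes run from 1.74 for Mrps27 to -0.55 for Mrpl58, with most points right of 0.

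Both subunits took part. Of the 25 small-subunit genes, 14 rose and 1 fell in carcinoma (median 0.22), and 15 rose and none fell in papilloma (median 0.33). Of the 45 large-subunit genes, 24 rose and 4 fell in carcinoma (median 0.30), and 24 rose and 3 fell in papilloma (median 0.30). By assigned class, 38 members have a homologue among bacterial ribosomal proteins, with the 3 Mrps18 paralogs and Mrps36 kept apart. Of these 38, 23 rose and 1 fell in carcinoma (median 0.34), and 23 rose and none fell in papilloma (median 0.34). Among the 29 members classed as without such a homologue, Mrpl58 included, 13 rose and 4 fell in carcinoma (median 0.14). In papilloma, 14 of them rose and 3 fell (median 0.26). The difference between the classes was not tested.

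Averaged over the 71 members, the level was 9.95 ± 0.14 in carcinoma, 9.97 ± 0.07 in papilloma and 9.66 ± 0.09 in normal tissue (SD, n = 5 each). Single arrays ranged from 9.75 to 10.13 in carcinoma, 9.86 to 10.03 in papilloma and 9.58 to 9.81 in normal tissue. Carcinoma array 4 was the low one, and it lay below normal array 1. Carcinoma array 4 held the lowest carcinoma value for 46 of 71 members, against 21.0% of all genes, and carcinoma array 3 the highest for 41, against 18.1%. Normal array 1, the only normal array with sex-linked transcripts of one kind, held the highest normal value for 56 of 71 members, against 37.1% of all genes. Members varied more in carcinoma than in the other groups: the median SD over members was 0.19 in carcinoma, 0.11 in papilloma and 0.12 in normal tissue, and over all genes 0.19, 0.15 and 0.12.

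**Figure D2:**
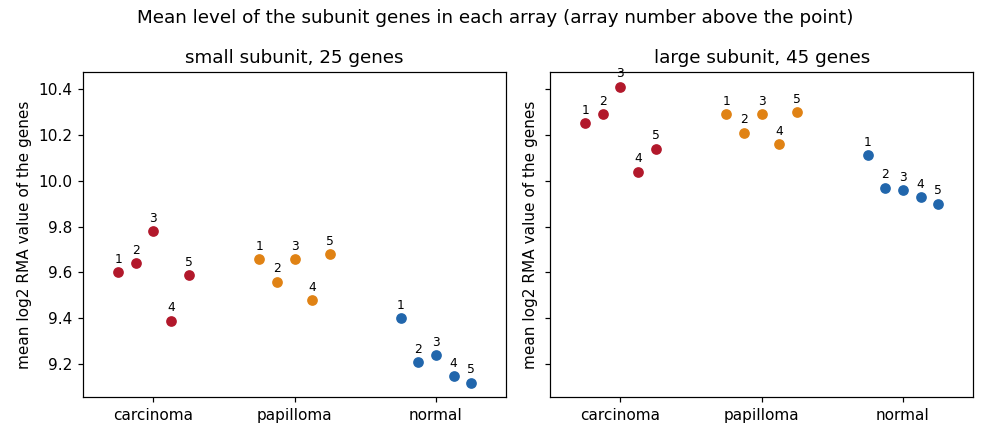
Mean log2 RMA value of the 25 small-subunit genes (left) and the 45 large-subunit genes (right) in each array, with carcinoma, papilloma and normal tissue from left to right and the array number above each point. Carcinoma array 4 (9.39 and 10.04) lies just below normal array 1 (9.40 and 10.11), and the other tumour arrays lie above all normal arrays.

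Mrps27, a pentatricopeptide repeat protein of the small subunit, changed most. It read 10.46, 10.57, 10.76, 9.13 and 10.07 in carcinoma arrays 1 to 5, 10.18, 10.22, 10.29, 9.93 and 10.30 in papilloma, and 8.70, 8.44, 8.57, 8.35 and 8.22 in normal tissue. Every tumour array stood above every normal array, with carcinoma array 4 closest to them. The change was 1.74 ± 0.23 (SE) in carcinoma, a 3.35-fold rise with adjusted p = 1.45e-05, and 1.73 ± 0.23 in papilloma, a 3.31-fold rise with adjusted p = 1.96e-05. With normal arrays 2 to 5 left out, the changes were 1.5 (adjusted p = 0.0443) and 1.48 (adjusted p = 0.0552).

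In the Mrps18 family, Mrps18b and Mrps18a rose in both tumour types and Mrps18c did not pass in either. Mammals have 3 homologues of the single bacterial S18 protein, and in the structures of human and pig mitoribosomes Mrps18b and Mrps18c sit in the small subunit and Mrps18a in the large one. Mrps18b read 10.27, 10.36, 10.31, 10.14 and 10.48 in carcinoma, 10.20, 10.01, 10.27, 10.12 and 10.19 in papilloma, and 9.42, 9.07, 9.23, 9.23 and 9.02 in normal tissue. No tumour array overlapped the normal ones, and the changes were 1.12 ± 0.09 (SE, adjusted p = 4.98e-08) in carcinoma and 0.96 ± 0.09 (adjusted p = 3.04e-07) in papilloma. A second probe set for the gene changed by 1.16 and 1.07. With normal arrays 2 to 5 left out, the rises were 0.90 (adjusted p = 0.00193) and 0.74 (adjusted p = 0.00679). Mrps18a averaged 10.68 ± 0.25 in carcinoma, 10.68 ± 0.07 in papilloma and 10.31 ± 0.05 in normal tissue, a rise of 0.37 in each tumour type (adjusted p = 0.00566 and 0.00714). Its lowest carcinoma value, 10.28 in array 4, lay among the normal arrays. Mrps18c, the paralog closest to the bacterial protein, averaged 8.42 ± 0.10, 8.29 ± 0.19 and 8.39 ± 0.16 in carcinoma, papilloma and normal tissue, with differences from normal of 0.03 and -0.10 (adjusted p = 0.842 and 0.527) and groups that overlapped.

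Mrpl45 and Mrpl3 led the large-subunit rises in carcinoma. Mrpl45, which in human mitoribosomes holds the exit site against the inner membrane, read 9.35, 9.75, 9.58, 9.07 and 9.46 in carcinoma, 9.28, 9.29, 9.32, 9.18 and 9.46 in papilloma, and 8.41, 8.51, 8.44, 8.55 and 8.47 in normal tissue. No tumour array overlapped the normal ones, and the changes were 0.97 ± 0.10 (SE, adjusted p = 1.42e-06) in carcinoma and 0.83 ± 0.10 (adjusted p = 8.95e-06) in papilloma. Both calls held without normal arrays 2 to 5, at 1.04 and 0.90 (adjusted p = 0.00628 and 0.0155). Mrpl3, homologue of a bacterial protein near the peptidyl transferase centre, read 10.77, 10.81, 10.95, 10.80 and 10.89 in carcinoma, 10.72, 10.56, 10.62, 10.51 and 10.54 in papilloma, and 10.19, 9.92, 9.87, 9.64 and 9.94 in normal tissue. Its rise was 0.93 ± 0.09 in carcinoma (1.91-fold, adjusted p = 3.87e-07) and 0.68 ± 0.09 in papilloma (1.60-fold, adjusted p = 1.4e-05). Without normal arrays 2 to 5 these were 0.65 (adjusted p = 0.00468) and 0.40 (adjusted p = 0.0574). All carcinoma arrays also lay above all papilloma arrays for Mrpl3, though the difference of 0.25 ± 0.09 missed the threshold (adjusted p = 0.0748).

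Mrps30 is named for the small subunit and lies in the large one. It read 10.44, 10.65, 10.42, 9.19 and 10.45 in carcinoma, 10.38, 10.06, 10.17, 9.96 and 10.17 in papilloma, and 9.55, 9.19, 9.32, 9.26 and 9.25 in normal tissue. Carcinoma array 4 was at the bottom of the normal range while the other carcinoma arrays were far above it. The changes were 0.92 ± 0.21 (SE, adjusted p = 0.00215) in carcinoma and 0.83 ± 0.21 (adjusted p = 0.00502) in papilloma. Neither passed without normal arrays 2 to 5 (0.68 and 0.60, adjusted p = 0.321 and 0.433).

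**Figure D3:**
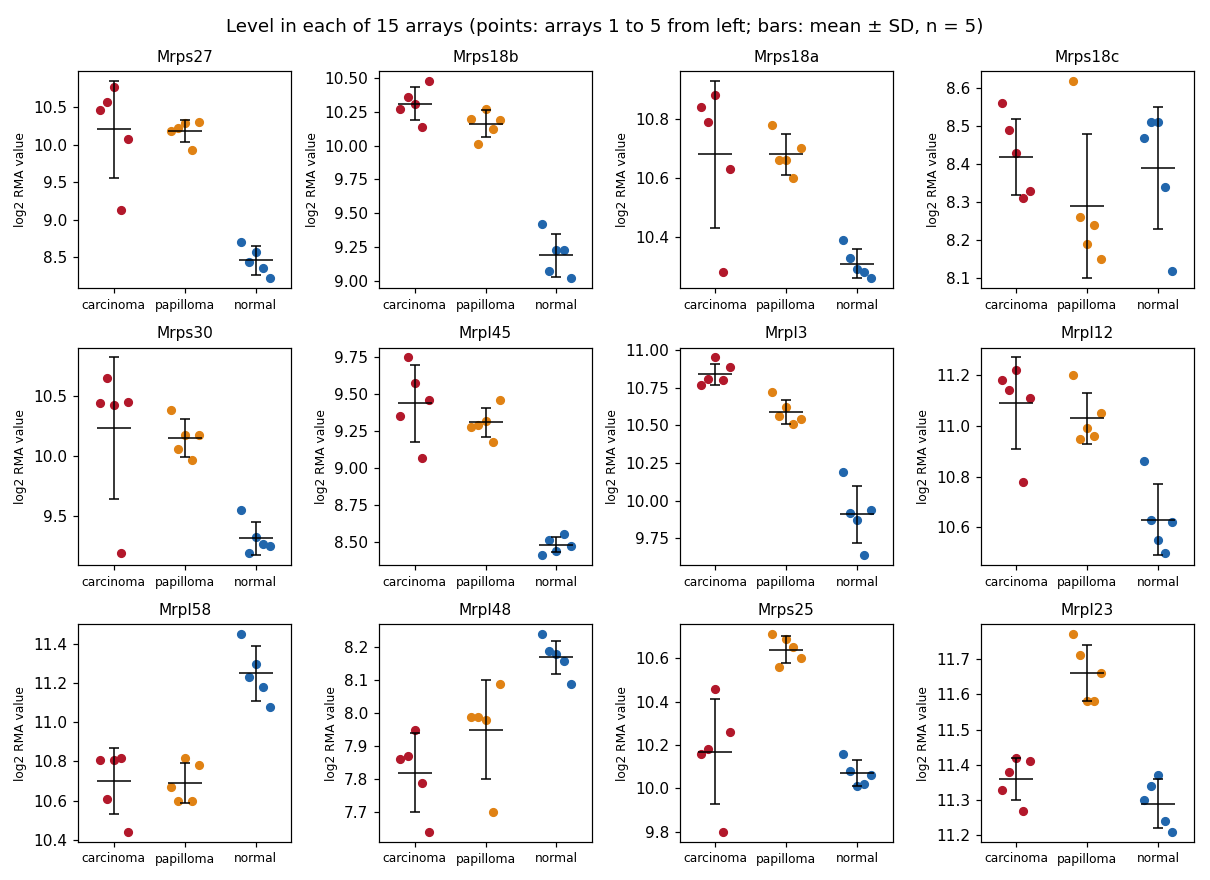
Level of 12 members in each of the 15 arrays, as points for arrays 1 to 5 of carcinoma, papilloma and normal tissue on a log2 RMA scale, with bars for the mean ± SD. Mrps27 and Mrps18b are higher in both tumour types, Mrps18c overlaps in all groups, Mrpl58 is lower in both, and Mrps25 and Mrpl23 are high in papilloma.

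Further members that led the rises were Mrps22, Mrpl50 and Mrpl16. Mrps22, a small-subunit protein whose human gene is mutated in inherited defects of mitochondrial translation, averaged 9.87 ± 0.24 in carcinoma, 9.73 ± 0.11 in papilloma and 9.02 ± 0.10 in normal tissue, with adjusted p = 5.27e-06 and 4.08e-05. Mrpl50, a large-subunit protein without a bacterial homologue, averaged 11.57 ± 0.24 in carcinoma, 11.65 ± 0.10 in papilloma and 10.89 ± 0.10 in normal tissue, with adjusted p = 5.62e-05 and 2.44e-05. For both genes the tumour arrays did not overlap the normal arrays. Without normal arrays 2 to 5, Mrps22 kept its calls in both comparisons, and Mrpl50, Mrpl16, Mrpl12, Mrps12, Mrps18a and Mrpl48 lost theirs against normal tissue.

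Mrpl12, the homologue of the bacterial stalk protein that in human cells also binds the mitochondrial RNA polymerase, averaged 11.09 ± 0.18 in carcinoma, 11.03 ± 0.10 in papilloma and 10.63 ± 0.14 in normal tissue. Its rises of 0.46 and 0.40 passed the test (adjusted p = 0.000962 and 0.00333). A dimmer second probe set changed by 0.18 and 0.19 and did not pass. Mrps12, whose bacterial homologue lies at the decoding site, averaged 8.71 ± 0.08 in carcinoma, 8.64 ± 0.08 in papilloma and 8.49 ± 0.06 in normal tissue, and rose by 0.22 in carcinoma (adjusted p = 0.0123), while its difference of 0.14 in papilloma did not pass (adjusted p = 0.106).

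A small set of members fell. Mrpl58, a peptidyl-tRNA hydrolase that frees stalled mitoribosomes and is built into the large subunit, read 10.81, 10.61, 10.81, 10.82 and 10.44 in carcinoma, 10.67, 10.60, 10.82, 10.60 and 10.78 in papilloma, and 11.45, 11.23, 11.30, 11.18 and 11.08 in normal tissue. Every tumour array lay below every normal array, with changes of -0.55 ± 0.09 (SE, adjusted p = 0.000143) in carcinoma and -0.55 ± 0.09 (adjusted p = 0.000157) in papilloma. With normal arrays 2 to 5 left out, the change was -0.75 in both tumour types. Normal array 1, which then remains, was the highest normal array for Mrpl58, which by itself makes the fall larger. Mrpl48, a large-subunit protein, averaged 7.82 ± 0.12 in carcinoma, 7.95 ± 0.15 in papilloma and 8.17 ± 0.05 in normal tissue, and fell by 0.35 (adjusted p = 0.00208) and 0.22 (adjusted p = 0.0412). The papilloma call of Mrpl48 was lost with 9 of the 15 arrays left out in turn, with the replicate block, with a robust variance trend, with either other normalization, over all probe sets and without papilloma arrays 2 and 4. Mrpl11, homologue of the bacterial stalk-base protein, read 9.87, 9.75, 10.20, 10.06 and 9.30 in carcinoma, 10.33, 10.24, 10.26, 10.16 and 10.30 in papilloma, and 10.72, 10.24, 10.27, 10.28 and 10.16 in normal tissue. Its difference was -0.50 ± 0.14 in carcinoma (adjusted p = 0.0112) and -0.08 in papilloma (adjusted p = 0.753), with carcinoma array 5 lowest. Without normal arrays 2 to 5, Mrpl11 differed by -0.89 in carcinoma and -0.46 in papilloma. Here too normal array 1 was the highest normal array, at 10.72, so larger falls follow from the array that remains. Mrps33 fell by 0.27 in carcinoma (adjusted p = 0.0301), as did Mrpl55 by 0.26 (adjusted p = 0.0262), and Mrpl57 fell by 0.23 in papilloma (adjusted p = 0.0364). The calls of Mrps33, Mrpl55 and Mrpl57 were lost without normal arrays 2 to 5, and also with 6, 4 and 7 of the 15 arrays left out in turn.

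Promoters of 4 of these members are shown because they are 3 of the leading rises and the leading fall. RefSeq windows on GRCm38.p6, from 250 bases before to 50 bases after the annotated start, were given for 62 of the 71 members and for 16918 of the tested genes. Each is printed 5′ to 3′ on the gene's own strand, and capitals mark matches, on either strand, to the motifs searched.
Mrps27, chr13:99344536-99344835, plus strand: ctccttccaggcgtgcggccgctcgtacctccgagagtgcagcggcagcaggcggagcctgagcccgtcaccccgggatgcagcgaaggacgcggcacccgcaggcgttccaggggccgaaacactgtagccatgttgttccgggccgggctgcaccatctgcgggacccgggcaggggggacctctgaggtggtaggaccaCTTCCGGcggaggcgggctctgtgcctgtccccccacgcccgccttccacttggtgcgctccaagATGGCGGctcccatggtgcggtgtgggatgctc
Mrps18b, chr17:35916391-35916690, minus strand: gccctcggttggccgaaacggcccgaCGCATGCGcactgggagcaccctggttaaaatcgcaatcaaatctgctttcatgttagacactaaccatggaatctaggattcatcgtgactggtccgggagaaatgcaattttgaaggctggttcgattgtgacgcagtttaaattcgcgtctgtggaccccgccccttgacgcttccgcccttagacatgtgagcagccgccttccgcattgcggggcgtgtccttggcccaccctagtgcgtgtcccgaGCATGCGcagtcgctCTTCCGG
Mrpl3, chr9:105053018-105053317, plus strand: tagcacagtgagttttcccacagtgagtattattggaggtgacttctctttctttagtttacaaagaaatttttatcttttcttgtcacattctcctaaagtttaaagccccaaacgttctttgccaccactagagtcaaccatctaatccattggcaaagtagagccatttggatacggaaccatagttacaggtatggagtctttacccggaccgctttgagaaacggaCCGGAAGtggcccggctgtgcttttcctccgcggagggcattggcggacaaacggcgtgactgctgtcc
Mrpl58, chr11:115403502-115403801, plus strand: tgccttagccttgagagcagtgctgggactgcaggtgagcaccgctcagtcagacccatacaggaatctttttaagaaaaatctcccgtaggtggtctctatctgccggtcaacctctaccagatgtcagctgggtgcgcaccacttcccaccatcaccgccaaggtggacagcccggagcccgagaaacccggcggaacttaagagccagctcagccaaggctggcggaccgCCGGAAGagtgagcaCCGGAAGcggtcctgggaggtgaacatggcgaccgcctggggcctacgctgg

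The capitals are an ETS-family motif (CCGGAAG or its reverse complement) in all 4 promoters, with 2 in Mrpl58, the core of the NRF1 element (GCATGCG) in Mrps18b, where the first block is a pair of overlapping matches on opposite strands, and a YY1 motif (ATGGCGG) in Mrps27. The Myc E-box CACGTG is in none of the 4. Across members, the E-box was found in 5 of 62 windows (8.06%), against 8.2% of all windows. The NRF1 core was found in 7 (11.3%, against 4.68%), the ETS motif in 22 (35.5%, against 11.7%) and the YY1 motif in 12 (19.4%, against 5.36%). Of the 31 members with a window that rose in carcinoma, 10 held the YY1 motif, 10 the ETS motif, 5 the NRF1 core and 2 the E-box. Of the 31 other members with a window, 2 held the YY1 motif, 12 the ETS motif, 2 the NRF1 core and 3 the E-box. The median change in carcinoma was 0.54 for members with the YY1 motif and 0.13 for those without, and 0.47 with the NRF1 core and 0.14 without. It was 0.18 with the ETS motif and 0.26 without, and 0.06 with the E-box and 0.25 without. These differences were not tested. These matches are letters in a window, and no binding was measured.

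Between the tumour types few ribosomal genes were called. Carcinoma minus papilloma gave 4 members lower, none higher and 67 that did not pass limma's test, a called share of 5.63% against 11.4% of all genes, with falls in 5.17% and rises in 6.24% of all genes. At an unadjusted p under 0.05, 4 members were higher and 7 lower. The changes ran from -0.47 to 0.41, with a median of 0.01 against -0.03 over all genes. The arrays did not overlap for 3 members, against 7.9% of all genes. Mrpl3 was higher in carcinoma (4.52% of all genes), and Mrps25 and Mrpl23 were lower (3.39% of all genes).

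Mrps25, a small-subunit protein without a bacterial homologue, read 10.16, 10.18, 10.46, 9.80 and 10.26 in carcinoma and 10.71, 10.56, 10.69, 10.65 and 10.60 in papilloma. The carcinoma arrays all lay lower, by 0.47 ± 0.10 (SE) or 1.39-fold (adjusted p = 0.00443). Normal tissue, at 10.07 ± 0.06, was near carcinoma (difference 0.11, adjusted p = 0.435), and papilloma stood 0.58 ± 0.10 above it (adjusted p = 0.000163). Mrpl23, a protein of the exit tunnel whose gene lies in the H19 and Igf2 region of chromosome 7, read 11.33, 11.38, 11.42, 11.27 and 11.41 in carcinoma and 11.77, 11.71, 11.58, 11.58 and 11.66 in papilloma, a difference of -0.30 ± 0.06 (adjusted p = 0.0052). Normal tissue was at 11.29 ± 0.07, with papilloma 0.37 ± 0.06 above it (adjusted p = 0.000191) and carcinoma within 0.07 of it (adjusted p = 0.428). Both genes passed the test of carcinoma minus papilloma under every alternative tried. Their rises in papilloma did not pass without normal arrays 2 to 5 (0.49 for Mrps25 and 0.36 for Mrpl23, adjusted p = 0.133 and 0.0798).

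Mrpl16 and Mrpl34 were also lower in carcinoma, less firmly. Mrpl16, homologue of a bacterial large-subunit protein, read 11.10, 11.13, 11.45, 11.06 and 10.65 in carcinoma and 11.53, 11.54, 11.62, 11.39 and 11.59 in papilloma, a difference of -0.46 ± 0.12 (adjusted p = 0.0223). Against normal tissue (10.74 ± 0.16) it rose in both, by 0.34 ± 0.12 in carcinoma (adjusted p = 0.0357) and 0.80 ± 0.12 in papilloma (adjusted p = 7.33e-05). The carcinoma rise lost its call with 7 of the 15 arrays left out in turn, with only the groups compared and over all probe sets. Mrpl34 read 11.64, 11.94, 12.14, 11.36 and 11.86 in carcinoma and 12.09, 12.14, 12.23, 12.15 and 12.21 in papilloma, a difference of -0.37 ± 0.11 (adjusted p = 0.0448). Mrpl16 did not pass without papilloma array 3 or 5 (adjusted p = 0.055 and 0.0507), and Mrpl34 did not pass under 13 of the 15 arrays left out in turn.

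Several chromosomes shifted as a whole between the tumour types. The median over all tested genes in carcinoma minus papilloma was -0.15 on chromosome 8, -0.12 on chromosome 12 and -0.13 on chromosome 19, and between -0.04 and 0.02 on the other autosomes. The 6 members on those chromosomes, Mrpl34 and Mrps31 on chromosome 8 and Mrpl11, Mrpl16, Mrpl21 and Mrpl49 on chromosome 19, were all lower in carcinoma, with a median of -0.35 and 2 calls. Of the other 65 members, 26 were lower, with a median of 0.03 and 2 calls. With each array's chromosome-wide shift removed, Mrpl16 differed by -0.33 (adjusted p = 0.0612) and Mrpl34 by -0.22 (adjusted p = 0.166), and Mrps25 and Mrpl23 remained called.

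**Figure D4:**
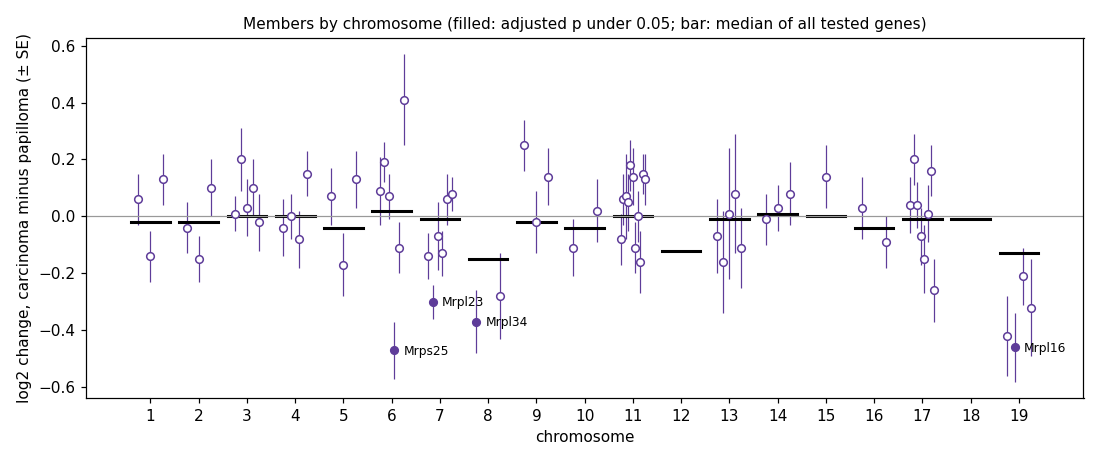
Log2 change of each member in carcinoma minus papilloma by chromosome (points with SE bars, filled where adjusted p is under 0.05), with a black bar for the median of all tested genes there. The 6 members on chromosomes 8 and 19 lie below 0, and Mrps25 on chromosome 6 and Mrpl23 on chromosome 7 stand apart from their chromosomes.

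Single carcinomas showed such shifts too, and not only arrays 4 and 5. Relative to the mean of the other carcinomas, the median over all tested genes in carcinoma array 2 was -0.20 on chromosome 16. The 2 members there both lay below that mean, with a median of -0.43. Carcinoma array 3 had medians of -0.16 on chromosome 12 and 0.13 on chromosome 19. Relative to the mean of the other carcinomas, the median over all tested genes in carcinoma array 4 was -0.20 on chromosome 8 and -0.13 on chromosome 13, and 0.22 on chromosome 19. The members of carcinoma array 4 were low on most chromosomes: 50 of 60 members on the 15 autosomes with all-gene medians of -0.06 to 0.10 lay below the mean of the other carcinomas, with a median of -0.21. On chromosomes 8 and 13 all 7 members did, with a median of -0.70. The 5 on chromosome 13 were below that mean by differing amounts, Mrps27 by 1.34, Mrps30 by 1.31, Mrps36 by 0.73, Mrpl36 by 0.70 and Mrpl32 by 0.40. In carcinoma array 5 the median over chromosome 19 was -0.23, and its 4 members there were all below the mean of the other carcinomas, with a median of -0.61, as were 39 of 59 members on the 15 autosomes with all-gene medians of -0.04 to 0.05 (median -0.06). Mrpl49, for instance, read 11.54, 11.59, 11.90, 11.97 and 10.73 in carcinoma, a range wider than its 11.78 to 11.97 in papilloma. In carcinoma array 5 the median over chromosome 8 was 0.19, and none of its 2 members there lay below the mean of the other carcinomas. Over chromosome 6 the median was 0.15 in that array, and its 6 members there were all above the mean of the other carcinomas. Mrps35, on that chromosome, read 10.08, 10.04, 10.53, 9.55 and 10.63 in carcinoma, against 9.54, 9.82, 9.77, 9.73 and 9.91 in papilloma. Without carcinoma array 4, 7 members were called between the tumour types. The share of all genes called in that fit is not given here, so the gain cannot be read as particular to the members. Mrps35 (0.56, adjusted p = 0.00694), Mrpl35 (0.24, adjusted p = 0.0332) and Mrps30 (0.34, adjusted p = 0.0273) were then higher in carcinoma. Mrps25, Mrpl23, Mrpl16 and Mrpl11 were lower. DNA copy number was not analysed here.

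Genes of the machinery around the ribosome were called more often than all genes against normal tissue, and about as often as all genes between the tumour types. Over 6 lists with 94 measured genes, 59 were called in carcinoma minus normal (62.8%, against 37.9% of all genes), 60 in papilloma minus normal (63.8%, against 33.2%) and 11 in carcinoma minus papilloma (11.7%, against 11.4%). Of 12 mitochondrial translation factors, 9 rose and none fell in carcinoma (median 0.55), and 8 rose in papilloma (median 0.59). Tufm, the elongation factor that brings tRNA to the ribosome, averaged 12.56 ± 0.22 in carcinoma, 12.63 ± 0.10 in papilloma and 11.28 ± 0.12 in normal tissue, with adjusted p = 4.71e-08 and 3.05e-08. Gfm1, the translocation factor, rose by 0.95 and 0.87 and Guf1, a back-translocase homologue, by 0.84 and 0.94 in carcinoma and papilloma. No translation factor passed limma's test between the tumour types, with 1 at an unadjusted p under 0.05 and a median difference of -0.03.

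Of 26 assembly factors of the mitoribosome, 14 rose and 1 fell in carcinoma (median 0.30), and 16 rose and none fell in papilloma (median 0.32). Noa1, a GTPase needed for small-subunit assembly, averaged 11.11 ± 0.14 in carcinoma, 11.13 ± 0.07 in papilloma and 9.65 ± 0.12 in normal tissue, changes of 1.46 and 1.48 (adjusted p = 1.28e-09 and 1.13e-09). Mettl17, an assembly methyltransferase homologue, rose by 0.80 in carcinoma, and Mrm3, an rRNA methyltransferase, by 0.64 in carcinoma and 0.75 in papilloma. Mpv17l2, an inner membrane protein, and Ddx28, an RNA helicase, both on chromosome 8, were lower in carcinoma than in papilloma by 0.48 (adjusted p = 0.0304) and 0.39 (adjusted p = 0.0082).

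Some ribosome-bound proteins carry other symbols. Dap3, a GTP-binding small-subunit protein, rose by 0.59 in carcinoma and 0.64 in papilloma (adjusted p = 0.000163 and 9.78e-05), and Oxa1l, the insertase that binds the ribosome, by 0.60 and 0.77. Ptcd3, a pentatricopeptide repeat protein of the small subunit, averaged 11.49 ± 0.47 in carcinoma, 12.29 ± 0.27 in papilloma and 11.25 ± 0.17 in normal tissue. Ptcd3, on chromosome 6, was lower in carcinoma than in papilloma by 0.80 (adjusted p = 0.0118). Gadd45gip1, on chromosome 8, differed between the tumour types by 0.05 (adjusted p = 0.884).

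Of 22 genes for mitochondrial transcription, replication and RNA processing, 15 rose and 1 fell in carcinoma (median 0.56), and 16 rose and none fell in papilloma (median 0.55). Twnk, the mitochondrial helicase, rose by 1.29 and 1.61 and Tfb2m, a transcription factor of the mitochondrial RNA polymerase, by 1.21 and 1.54 in carcinoma and papilloma. Between the tumour types, the mitochondrial DNA polymerase subunit genes Polg (0.29) and Polg2 (0.37) were higher in carcinoma (adjusted p = 0.0238 and 0.0254). Lrpprc, on chromosome 17, an RNA-binding protein that stabilises mitochondrial messages, was lower by 0.35 (adjusted p = 0.00704). Of 20 import and folding genes, 14 rose and none fell in each tumour type (medians 0.52 and 0.51), led by the chaperonin Hspd1 at 1.22 in carcinoma and 1.26 in papilloma. Tomm20, an outer membrane import receptor on chromosome 8, was lower in carcinoma than in papilloma by 0.46 (adjusted p = 0.006). Of 10 nuclear regulators of mitochondrial genes, 2 rose and 1 fell in each tumour type, a called share of 30.0% against 37.9% and 33.2% of all genes. Myc, whose allele all groups carry, averaged 8.46 ± 0.34 in carcinoma, 8.26 ± 0.17 in papilloma and 7.65 ± 0.09 in normal tissue (adjusted p = 0.000166 and 0.00228), and the coactivator gene Pprc1 rose by 0.92 and 1.03. Esrra, on chromosome 19, encodes a nuclear receptor for energy metabolism genes. It was lower in carcinoma than in normal tissue by 0.56 (adjusted p = 0.00133) and lower than in papilloma by 0.57 (adjusted p = 0.00601). Gabpb2, a subunit gene of the ETS factor GABP, and Nrf1, the nuclear respiratory factor gene, were higher in carcinoma than in papilloma by 0.55 (adjusted p = 0.0021) and 0.28 (adjusted p = 0.0233). Against normal tissue, Gabpb2 fell by 0.40 in papilloma (adjusted p = 0.00502) and did not pass in carcinoma (0.15, adjusted p = 0.271). Nrf1 passed against normal tissue in neither carcinoma (0.18, adjusted p = 0.064) nor papilloma (-0.10, adjusted p = 0.386).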

How the data were processed

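The authors' deposited values are log2 RMA summaries per probe set (Affymetrix Expression Console), per the submitters' processing notes, from biotin-labelled whole-transcript cDNA. RMA subtracts background, equalises the arrays' intensity distributions and summarises probes, which compresses small changes of dim genes and removes any global change in RNA amount. The genome build and software versions are not given in the sources used here. Array medians were 6.80 to 6.90. Arrays have no read depth, so the number of arrays limits precision.

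Of 41345 probe sets, 190 were controls and 23521 had 1 gene symbol. The set with the highest mean over 15 arrays stood for each of 22180 genes, with no filter on low values. Names and chromosomes came from RefSeq (GRCm38.p6). Groups came from the sample titles. A limma 3.58.1 model (R 4.3.3) with group as the only term was fitted to all 15 arrays (12 residual and 3.35 prior degrees of freedom), with two-sided p-values adjusted by Benjamini-Hochberg over all genes, threshold 0.05. The procedure was run on simulated arrays with independent noise in each gene and few changed genes. The simulation had no shifts shared by an array or a chromosome, so it does not check the calls against such shifts.

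Members named in full were the largest called rises (6) and falls (4) against normal tissue, those called between tumour types (up to 5 each way), the Mrps18 paralogs, members of special role, and the brightest and dimmest. Up to 3 genes, and 1 in the other direction, were named per partner list. The members and lists were chosen with earlier results of these data known. Alternatives were a replicate block, other moderation, weights, normalizations, filters and probe set rules, only the groups compared, chromosome-wide shifts removed, and arrays left out.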

Additional observations from a re-analysis of the deposited data

Results flagged for a closer look

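Single arrays of a group stood far from the rest for 6 of the 66 groups of 5 arrays checked, where chance marks about 1 in 20. Those flagged were all of named members, but only part of the members was checked, so this does not set named members apart from the rest. Carcinoma array 4 read 10.78 for Mrpl12, with the nearest carcinoma at 11.11, and 9.19 for Mrps30, with the nearest at 10.42. Papilloma array 1 read 8.62 for Mrps18c, with the nearest papilloma at 8.26. Normal array 1 read 10.72 for Mrpl11 and 11.07 for Mrpl50, with the nearest normal arrays at 10.28 and 10.86. Normal array 5 read 10.42 for Mrps33, with the nearest at 10.64.

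The change from normal tissue differed between the tumour types, by limma's test of carcinoma minus papilloma, for Mrps25 (-0.47), Mrpl16 (-0.46), Mrpl34 (-0.37) and Mrpl23 (-0.30).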

How the results depend on the processing

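No value called in the reported fit or under an alternative changed sign between them. Among values called in neither, 65 changed sign, with changes of at most 0.13 in size. Of 1698 alternative values for the named members, 1594 kept their side of the threshold, 87 lost the call and 17 gained one. Leaving out normal arrays 2 to 5 reduced the called members to 11 in carcinoma minus normal, 5 in papilloma minus normal and 2 in carcinoma minus papilloma, and the called partner genes to 21, 16 and 5, against 59, 60 and 11. This leaves 1 normal array, so fewer samples by construction, and the share of all genes called in that fit is not given here. Between the tumour types, 2 members were called with only the groups compared, 2 with chromosome-wide shifts removed and 2 without papilloma arrays 2 and 4, an alternative added after seeing the data. Partner calls there were 17 with array quality weights, 5 with only the groups compared and 7 without papilloma arrays 2 and 4. The cause was not tested. Leaving out each array gave 37 to 47 called members in carcinoma minus normal, 36 to 44 in papilloma minus normal and 2 to 7 in carcinoma minus papilloma, where the 7 came without carcinoma array 4 and the 2 without papilloma array 3 or 5. Partner genes gave 57 to 64, 53 to 65 and 7 to 15. Of the called members, 34 of 43, 36 of 42 and 2 of 4 kept the call whichever array was left out.

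Deviations from the group means were barely correlated between like-numbered arrays (-0.10 to 0.14). The sample titles state no pairing, and these correlations gave no sign of one but cannot exclude it. With the replicate block, 43, 42 and 4 members and 59, 61 and 11 partner genes were called. With all single-symbol probe sets averaged per gene, Mrpl10 in carcinoma and Mrpl47 in papilloma lost their calls against normal tissue.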

Other observations

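Another 13 probe sets carry an Mrpl or Mrps symbol beside other symbols and were left out of the members. Of these, 3 were called higher and 2 lower in carcinoma minus normal, with a median change of -0.10 and a range of -1.25 to 0.85, a number of calls near the 37.9% of all genes. In papilloma minus normal, 3 were called higher and 2 lower, with a median of 0.13, against 33.2% of all genes called. In carcinoma minus papilloma, none was higher and 2 were lower, with a median of -0.08, against 11.4% of all genes called.

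Of the 9 members with more than 1 probe set, Mrpl10 differed most between its sets: the brighter one changed by 0.47 in carcinoma and 0.55 in papilloma against normal tissue, and the dimmer one, at a mean of 7.64, by -0.14 and -0.06. Both sets of Mrps5 rose in both tumour types.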
